A study of Homo sapiens with 8 samples.

Results

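The clustered histone genes are the genes whose symbols name a place in one of the human histone gene clusters, from HIST1H to HIST4H. They were taken from the count table by symbol, protein-coding rows only, which gave 71 of the 27945 counted genes. By histone type they comprised 6 H1, 17 H2A, 18 H2B, 15 H3 and 15 H4 genes. Rows closer than 300 kb were joined, which gave 7 groups along the genome on the hg19 build. The largest held 34 genes at chr6:25726291-26285727, followed by 16 genes at chr6:27775257-27861669, 11 genes at chr1:149754245-149859466, 5 genes at chr6:27100095-27115341 and 3 genes at chr1:228612546-228646259. HIST2H3PS2 on chromosome 1 and HIST4H4 on chromosome 12 stood alone.

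H1 is the linker histone that binds DNA between nucleosomes, and H2A, H2B, H3 and H4 form the protein core around which DNA is wound. These genes are the replication-dependent histone genes: most have no intron, they are transcribed mainly in S phase in nuclear bodies organised by NPAT, and their mRNAs end shortly after a stem-loop that SLBP binds, without a poly(A) tail. Some of them are also known to give longer, polyadenylated mRNAs in cells that no longer divide. Senescence is a stable exit from the cell cycle, and METTL3 and METTL14 are the core of the complex that methylates adenosine in RNA.

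The assay, fastGRO-seq, reads nascent RNA: nuclei extend the transcripts already under way with a labelled nucleotide and the labelled RNA is sequenced. The cells were IMR90, a human embryonic lung fibroblast line, carrying an inducible fusion of the estrogen receptor and oncogenic RAS (ER:RAS). The 4 groups held 2 libraries each. Control cells were labelled WT and were the untreated, proliferating cells of the study. The other 3 groups were labelled senescent and carried shControl, shMETTL3 or shMETTL14, delivered by lentivirus. The general protocol of the study induces RAS with 100 nM 4-hydroxytamoxifen (4-OHT) and names day 6 for checking senescence markers, while the harvest day of these libraries is not given in the sources used here. The labels give no shRNA for control cells, so senescence, 4-OHT and infection cannot be told apart in the comparison of shControl with control. A figure legend of the study counts 2 independent fastGRO-seq experiments, given for senescent against proliferating cells. The p-values use a spread between libraries that was estimated over all 4 groups together. Replicates did not vary alike. Their variance over that expected from counting was 6.03 in shMETTL3, 2.93 in shMETTL14, 1.81 in control and 1.60 in shControl.

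Counts outside ribosomal RNA rows ranged from 1513930 to 2048475 per library, and ribosomal RNA rows took 86.2% to 92.5% of all counts. METTL3 had 80 and 78 counts in control, 77 and 47 in shControl, 16 and 19 in shMETTL3, and 73 and 56 in shMETTL14. It was lower after its knockdown than in shControl, by a log2 fold change of -2.04 ± 0.31 (SE, edgeR adjusted p = 1.79e-05). METTL14 had 60 and 55 counts in control, 24 and 28 in shControl, 41 and 48 in shMETTL3, and 18 and 14 in shMETTL14. Its libraries did not overlap between shMETTL14 and shControl, but the log2 fold change of -0.86 ± 0.34 did not pass the test (edgeR adjusted p = 0.0763). All 10 fibroblast markers had counts in every group, 27802 to 29477 counts summed per library in control and 9517 to 14152 in senescent cells. Summed counts per library were at most 77 for 6 epithelial, 10 for 4 endothelial and 64 for 5 leukocyte markers. KRT5, an epithelial keratin, and CD3E, a T cell receptor chain, were at 0 in every library. The leukocyte sum came mostly from CD68, a lysosomal protein, with 17 and 16 counts in control and 26 to 60 in senescent cells. The part of these marker changes in the histone results was not tested.

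Most clustered histone genes ended at the sequence that marks their class of mRNA. A stem-loop of 6 pairs and a loop of 4 bases, starting GG, ending CC and with TT opening the loop, was searched for at the 3′ end of every row, from 150 bases inside to 100 bases past it, on the GRCh37 genome. It lay there in 63 of 71 members (88.7%) and in 17 of 18907 other protein-coding rows (0.0899%). Counting also the rows that run on past their stem-loop, it took 7 forms, of which the commonest was found in 41 members. Shown are the stem-loops (capitals) with 5 bases on each side, 5′ to 3′, of 3 genes called lower in senescence (HIST1H1B, HIST1H3B and HIST1H4E) and 3 that were not.
HIST1H1B, chr6:27834570-27834595, minus strand, GRCh37: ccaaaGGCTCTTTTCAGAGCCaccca
HIST1H3B, chr6:26031820-26031845, minus strand, GRCh37: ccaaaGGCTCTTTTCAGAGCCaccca
HIST1H4E, chr6:26205224-26205249, plus strand, GRCh37: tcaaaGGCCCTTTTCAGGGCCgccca
HIST1H2BK, chr6:27114140-27114165, minus strand, GRCh37: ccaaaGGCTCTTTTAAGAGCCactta
HIST2H2BE, chr1:149857733-149857758, minus strand, GRCh37: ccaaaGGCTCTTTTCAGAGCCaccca
HIST3H2A, chr1:228645065-228645090, minus strand, GRCh37: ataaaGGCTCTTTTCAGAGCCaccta
HIST1H1B, HIST1H3B, HIST2H2BE and HIST3H2A shared the commonest form, although their counts moved in different directions, as given below for each gene.

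The members differed in where the counted row ended. In 63 members the row ended at the stem-loop. In HIST2H3PS2, HIST2H2BF, HIST2H2BE, HIST1H2BD and HIST1H2BK it ran on past the last stem-loop, by 1728 bases in HIST2H2BE, 1778 in HIST2H3PS2, 8073 in HIST1H2BK, 12746 in HIST1H2BD and 29195 in HIST2H2BF. No stem-loop of this form was found in HIST1H3E, HIST1H2BI and HIST1H4L. Counts cover the whole row, so reads before and after the stem-loop of the 5 long rows cannot be told apart. This grouping was made after the counts had been seen and is used as a description, with no test.

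Promoters were matched for 66 members in RefSeq (GRCh38.p14), as 250 bases before and 50 from the transcription start on. HIST1H4A, HIST1H2AH, HIST1H4C, HIST1H3I and HIST1H3J had no entry. The TATA box (TATAAA, either strand) was present in 44 of 66 member promoters (66.7%) and in 12% of all 27305 promoters. The CCAAT box (CCAAT, either strand) was present in 56 members (84.8%) and in 35.7% of all promoters. It was in every matched H1, H2A, H2B and H3 promoter but in 3 of 13 H4 promoters. The octamer (ATTTGCAT, either strand) was present in 14 of 18 H2B and 11 of 16 H2A promoters, in 1 of 13 H3 and in no H1 or H4 promoter, and in 1.80% of all promoters. Promoter windows of neighbouring H2A and H2B genes can overlap, so a site can count for both. The octamer at -46 of HIST2H2BE and that at -197 of HIST2H2AC were the same bases. Promoters of 2 genes that fell and 2 that did not are shown 5′ to 3′ in the sense of the gene, with these 3 motifs in capitals.
HIST1H1B, chr6:27867539-27867838, minus strand, GRCh38.p14: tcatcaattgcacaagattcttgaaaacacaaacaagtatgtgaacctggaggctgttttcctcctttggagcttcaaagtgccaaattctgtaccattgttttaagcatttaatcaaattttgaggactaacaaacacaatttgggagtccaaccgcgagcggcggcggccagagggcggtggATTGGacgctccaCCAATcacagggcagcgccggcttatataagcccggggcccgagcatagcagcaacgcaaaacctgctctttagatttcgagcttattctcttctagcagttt
HIST1H3B, chr6:26032050-26032349, minus strand, GRCh38.p14: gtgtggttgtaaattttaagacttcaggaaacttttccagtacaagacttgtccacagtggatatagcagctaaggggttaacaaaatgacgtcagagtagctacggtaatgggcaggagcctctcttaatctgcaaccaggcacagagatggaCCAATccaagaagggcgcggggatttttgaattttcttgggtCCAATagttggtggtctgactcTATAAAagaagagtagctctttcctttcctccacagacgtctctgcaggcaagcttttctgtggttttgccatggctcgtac
HIST1H2BK, chr6:27146809-27147108, minus strand, GRCh38.p14: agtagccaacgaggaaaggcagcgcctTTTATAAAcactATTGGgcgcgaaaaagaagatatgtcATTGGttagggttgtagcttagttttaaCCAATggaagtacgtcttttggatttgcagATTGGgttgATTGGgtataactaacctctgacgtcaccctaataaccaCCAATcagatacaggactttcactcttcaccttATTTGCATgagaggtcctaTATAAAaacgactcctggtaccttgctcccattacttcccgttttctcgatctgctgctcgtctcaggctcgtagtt
HIST2H2BE, chr1:149886633-149886932, minus strand, GRCh38.p14: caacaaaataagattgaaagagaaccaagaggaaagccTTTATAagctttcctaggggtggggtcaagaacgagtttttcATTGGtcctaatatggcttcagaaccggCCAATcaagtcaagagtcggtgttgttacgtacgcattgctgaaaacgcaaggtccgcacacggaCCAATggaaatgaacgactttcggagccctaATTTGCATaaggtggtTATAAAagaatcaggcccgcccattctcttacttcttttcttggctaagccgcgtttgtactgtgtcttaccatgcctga
By this letter search, the promoters of HIST1H2BK and HIST2H2BE held all 3 motifs, that of HIST1H3B the TATA and CCAAT boxes, and that of HIST1H1B the CCAAT letters alone. The search took exact letters anywhere in the 300 bases. It thus missed other forms, such as the tatataa shown for HIST1H1B, and counted distant ones, such as TATAAA at -220 in HIST1H2BC. Among the 5 rows that run past the stem-loop, the TATA box was in 4, the CCAAT box in 5 and the octamer in 3. Among the 23 matched members that were lower in senescence, as described below, they were in 14, 19 and 7.

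Of the 71 members, 62 had a count in some library and 9 were at 0 in all 8. HIST2H4A, HIST2H4B, HIST2H3A, HIST2H3C, HIST2H2AA3 and HIST2H2AA4 were among those at 0. These 6 are listed at 2 positions in the genome, and of the 909 rows listed at 2 or more positions 64.1% were at 0 everywhere, against 21.6% of rows at 1 position. HIST1H2AA, HIST3H3 and HIST1H4G were the other 3. HIST1H2BA had 1 count in all and HIST3H2BB 6, and HIST1H1T, the testis H1, had none in control and up to 7 in a senescent library. A total of 41 members passed the filter on low counts (edgeR filterByExpr, minimum count 10) and were tested. Of these, 26 passed only with the control libraries, so they had to lie higher in control cells, and 15 passed without them. The 15 had to reach the minimum in senescent libraries, so they lean toward genes that stayed up or rose there.

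**Figure D1:**
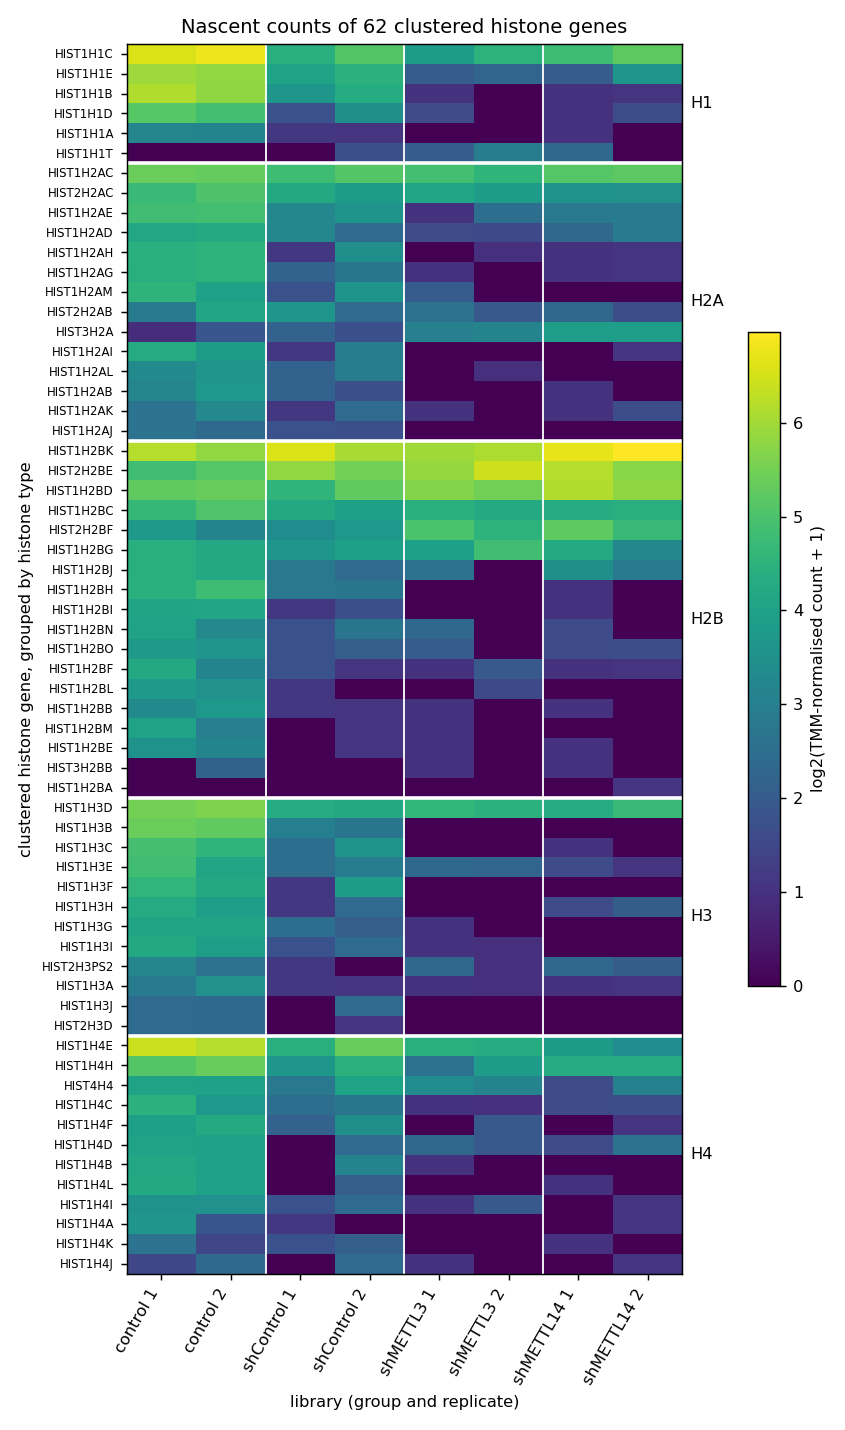
TMM-normalised counts, as log2(count + 1), of the 62 members with a count, in rows grouped by histone type and ordered by mean count, for the 8 libraries in columns. The control columns are the brightest in most rows, while HIST1H2BK, HIST2H2BE and HIST1H2BD stay bright in all groups and HIST3H2A is brightest in shMETTL14.

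Clustered histone genes gave far fewer nascent counts in senescent cells. Their raw counts summed to 1493 and 1433 in control, 409 and 550 in shControl, 407 and 457 in shMETTL3, and 522 and 482 in shMETTL14. As per-million counts (CPM, relative to the library total outside ribosomal RNA rows), the sum was 777 ± 34.0 (SD, n = 2) in control, 309 ± 55.6 in shControl, 223 ± 0.179 in shMETTL3 and 311 ± 8.17 in shMETTL14. All 6 senescent libraries were below both control libraries. The sum was 39.8% of control in shControl, 28.7% in shMETTL3 and 40% in shMETTL14. In bulk cells, fewer cells in S phase and less nascent RNA per cell cannot be told apart, and without a spike-in, which was not used here, the values are relative to the other genes of a library.

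The histone types differed in how far their sums, which were not tested, lay below control. H1 went from 159 ± 6.09 CPM (SD, n = 2) in control to 38.9 ± 14.9 in shControl, and H3 from 136 ± 13.3 to 34.1 ± 10.9. H4 went from 142 ± 11.5 to 48.8 ± 27.9 and H2A from 142 ± 7.67 to 60.4 ± 9.69. H2B as counted was the least reduced, at 199 ± 10.8 in control, 127 ± 7.80 in shControl, 137 ± 2.58 in shMETTL3 and 191 ± 20.1 in shMETTL14. The H2B sum includes HIST2H2BF, HIST2H2BE, HIST1H2BD and HIST1H2BK, whose rows run past the stem-loop. H2B was not summed without them, so histone type and row end cannot be told apart in this ranking. The knockdown cells had lower mean sums for the other types, with H1 at 14.3 ± 3.20 in shMETTL3 and 26.7 ± 6.05 in shMETTL14, and H3 at 16.4 ± 3.18 and 18.9 ± 1.88. For H1, shMETTL14 replicate 2, at 31.0 CPM, lay above shControl replicate 1, at 28.4. H4 stood at 23.9 ± 2.04 in shMETTL3 and 26.4 ± 2.98 in shMETTL14, and H2A at 31.7 ± 4.81 and 47.4 ± 0.986. The control libraries lay above every senescent library for H1, H2A, H3 and H4, while for H2B a shMETTL14 library lay among them.

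The rows that run past the stem-loop, 4 of them H2B genes, stood apart as a sum. The 63 rows that end at the stem-loop summed to 653 ± 21.6 CPM (SD, n = 2) in control, 207 ± 62.6 in shControl, 110 ± 2.87 in shMETTL3 and 145 ± 5.66 in shMETTL14. The 5 rows that run past it summed to 90.8 ± 6.59, 97.5 ± 9.68, 111 ± 2.87 and 164.5 ± 12.6 in the same order. Without those 5 rows, a choice made after the counts had been seen, all other members together stood at 30.9% of control in shControl, 16.3% in shMETTL3 and 21.3% in shMETTL14. The 5 rows themselves stood at 107%, 122% and 181% of control. HIST2H3PS2, the H3 gene among them, was too low to be tested, with 9 and 6 counts in control, 1 and 0 in shControl, 4 and 1 in shMETTL3 and 4 and 3 in shMETTL14.

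**Figure D2:**
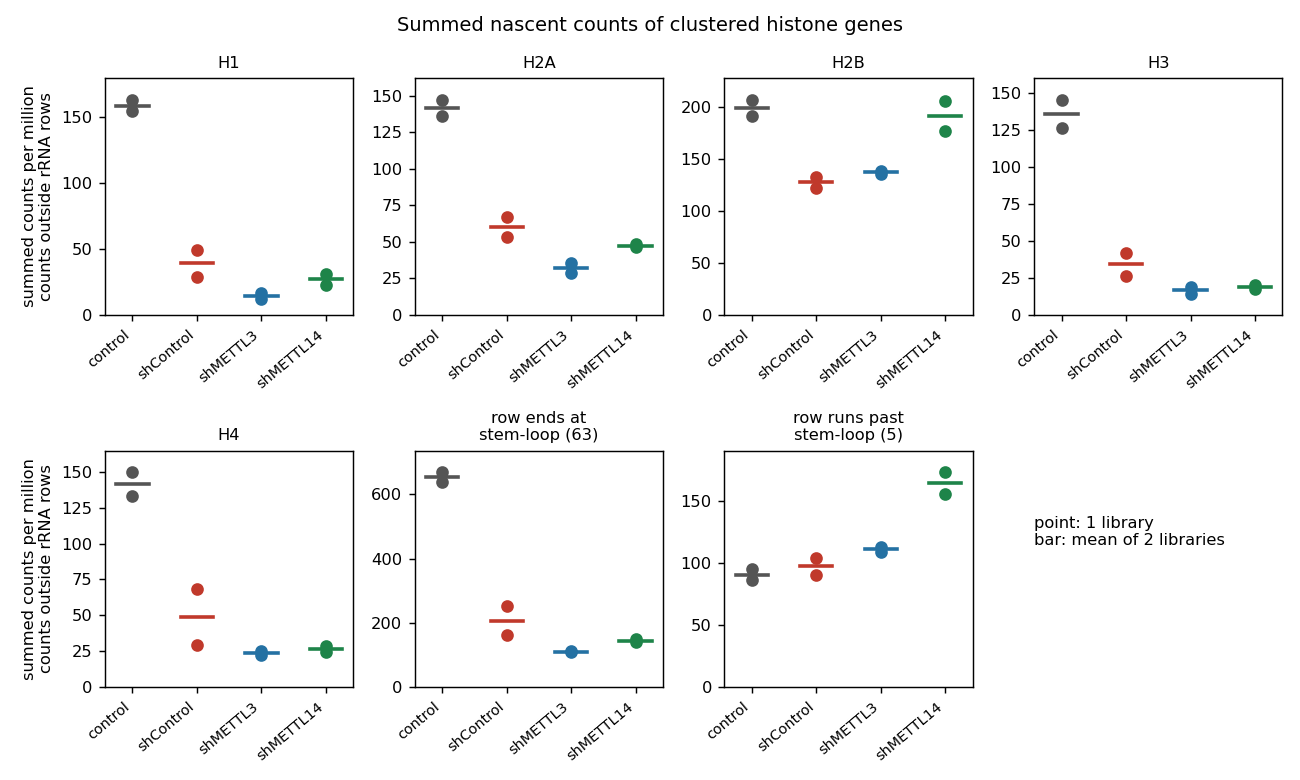
Summed CPM, relative to counts outside ribosomal RNA rows (y axis, from 0) in the 4 groups (x axis) for each histone type and for rows that end at or run past the stem-loop; points are libraries and bars are means of 2. H1, H2A, H3 and H4 lie below control in every senescent library, and the sum of the 5 long rows does not.

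The sums also differed between the groups along the genome. The 16 genes at chr6:27775257-27861669, none of which runs past the stem-loop, went from 135 ± 22.6 CPM (SD, n = 2) in control to 33.7 ± 20.5 in shControl, 5.09 ± 4.44 in shMETTL3 and 6.19 ± 0.186 in shMETTL14. The 34 genes of the largest group went from 494 ± 13.3 to 163 ± 47.0, 110 ± 2.95 and 151 ± 1.59. The 11 genes at chr1:149754245-149859466, which include HIST2H2BE and HIST2H2BF, summed to 51.2 ± 7.88, 48.0 ± 7.79, 61.1 ± 3.36 and 64.5 ± 15.1. In shControl HIST2H2BE had 48 and 39 and HIST2H2BF 8 and 11 of its 81 and 67 raw counts, and both rows run past the stem-loop. The group was not summed without them, so position and row end cannot be told apart here. Among 7 other protein-coding genes between the histone genes, TRIM38, a ubiquitin ligase of innate immunity, lies in the largest group. It had 77 and 83 counts in control, 58 and 63 in shControl, 102 and 128 in shMETTL3, and 69 and 75 in shMETTL14. TRIM38 did not pass the test in senescence (log2 fold change -0.02 ± 0.21, edgeR adjusted p = 0.963) and was higher in shMETTL3 than in shControl (0.71 ± 0.20, adjusted p = 0.00996). HFE, which regulates iron uptake, had 17 and 10, 5 and 11, 19 and 15, and 23 and 14 counts in the same order and passed the test in none of the 3 main comparisons, and the other 5 genes were not tested.

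The first comparison set senescent shControl cells against control cells. Of the 71 members, 26 were lower in shControl, 0 were higher, 15 did not pass the test and 30 were not tested. Over all 12844 genes tested, 13.3% were lower and 13.3% were higher (edgeR quasi-likelihood test, adjusted p below 0.05). The median log2 fold change was -1.67 over the tested members and -0.03 over all genes tested. Since 26 of the 41 tested members passed the filter only with the control libraries, these figures describe the set and are not support for its direction. The median was -0.64 over the 8 members with at least 10 counts in every library. Of the 15 that passed without the control libraries, 5 were lower, namely HIST1H1C, HIST1H1E, HIST1H3D, HIST1H4E and HIST1H4H. At an unadjusted p below 0.05, edgeR had 1 member higher, and DESeq2 called 0 higher.

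The H1 genes called lower were HIST1H1B, HIST1H1C, HIST1H1D and HIST1H1E, of which HIST1H1C and HIST1H1E passed the filter without the control libraries. HIST1H1C, the H1 gene with the most counts, had 109 and 126 in control and 17 and 30 in shControl, a log2 fold change of -1.93 ± 0.28 (SE, edgeR adjusted p = 4.39e-06). HIST1H1E had 69 and 64 counts in control and 13 and 19 in shControl, and HIST1H1B had 78 and 63 and then 10 and 17. For each of these genes both shControl libraries lay far below both control libraries. HIST1H1D had 39 and 32 counts in control and 2 and 9 in shControl. HIST1H1A, not tested, had 9 and 9 counts in control and 1 and 1 in shControl.

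Among H3 and H4 genes called lower, HIST1H3D, HIST1H4E and HIST1H4H passed the filter without the control libraries, and the others had to lie higher in control to be tested. The H3 genes called were HIST1H3B, HIST1H3C, HIST1H3D, HIST1H3E, HIST1H3G, HIST1H3H and HIST1H3I. HIST1H3B had 46 and 43 counts in control and 6 and 5 in shControl, a 6.20-fold decrease (95% exact counting interval 3.30 to 12.9; edgeR log2 fold change -2.61 ± 0.48, adjusted p = 0.000180). HIST1H3D, the H3 row with the most counts, went from 50 and 55 to 16 and 16. Its row also holds HIST1H2AD, so both can share reads. The H4 genes called were HIST1H4B, HIST1H4C, HIST1H4D, HIST1H4E, HIST1H4H and HIST1H4L. HIST1H4E, the H4 gene with the most counts, had 95 and 83 in control and 17 and 36 in shControl (log2 fold change -1.36 ± 0.29, edgeR adjusted p = 0.000784). Per length it was also the highest of all members in control, at 136 and 116 RPKM, and stood at 29.9 and 60.7 RPKM in shControl. HIST1H4L had 20 and 17 counts in control and 0 and 3 in shControl, 0 and 0 in shMETTL3 and 1 and 0 in shMETTL14, and its decrease in senescence was 9.45-fold with a counting interval of 2.99 to 47.9.

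The H2A genes called lower were HIST1H2AE, HIST1H2AG, HIST1H2AH and HIST1H2AI, and the H2B genes HIST1H2BH, HIST1H2BI, HIST1H2BJ, HIST1H2BL and HIST1H2BO, all of which passed the filter only with the control libraries. The steepest fall of all was that of HIST1H2BL, with 14 and 12 counts in control and 1 and 0 in shControl (19.9-fold, counting interval 3.27 to 816). It had 0 and 2 counts in shMETTL3 and 0 and 0 in shMETTL14. HIST1H2BI went from 18 and 19 in control to 1 and 2 in shControl, 0 and 0 in shMETTL3 and 1 and 0 in shMETTL14. These genes nearly vanished from the shControl libraries, where a few reads decide the fold.

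Several H2A and H2B genes did not pass the test. HIST1H2AC, the H2A gene with the most counts, had 46 and 45 in control and 23 and 30 in shControl (log2 fold change -0.40 ± 0.30, edgeR adjusted p = 0.359). HIST1H2BK, the member with the most counts of all, had 82 and 64 in control and 82 and 59 in shControl (0.34 ± 0.22, adjusted p = 0.294). HIST2H2BE had 31 and 39 counts in control and 48 and 39 in shControl (0.70 ± 0.29, adjusted p = 0.0768). HIST1H2BD had 42 and 46 counts in control and 19 and 34 in shControl, and HIST2H2BF had 14 and 9 and then 8 and 11. Their groups overlapped or lay close, and all 4 tested rows that run past the stem-loop are among these 5 genes. HIST1H4I, inside the HIST1H2BK row, had 12 and 12 counts in control and 2 and 4 in shControl.

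The number of members called depended on the tool and on single libraries. DESeq2 called 7 members lower (HIST1H1B, HIST1H1C, HIST1H1D, HIST1H1E, HIST1H3B, HIST1H3D and HIST1H4E), and edgeR called 8 without control replicate 1, 13 without control replicate 2, 5 without shControl replicate 1 and 16 without shControl replicate 2.

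**Figure D3:**
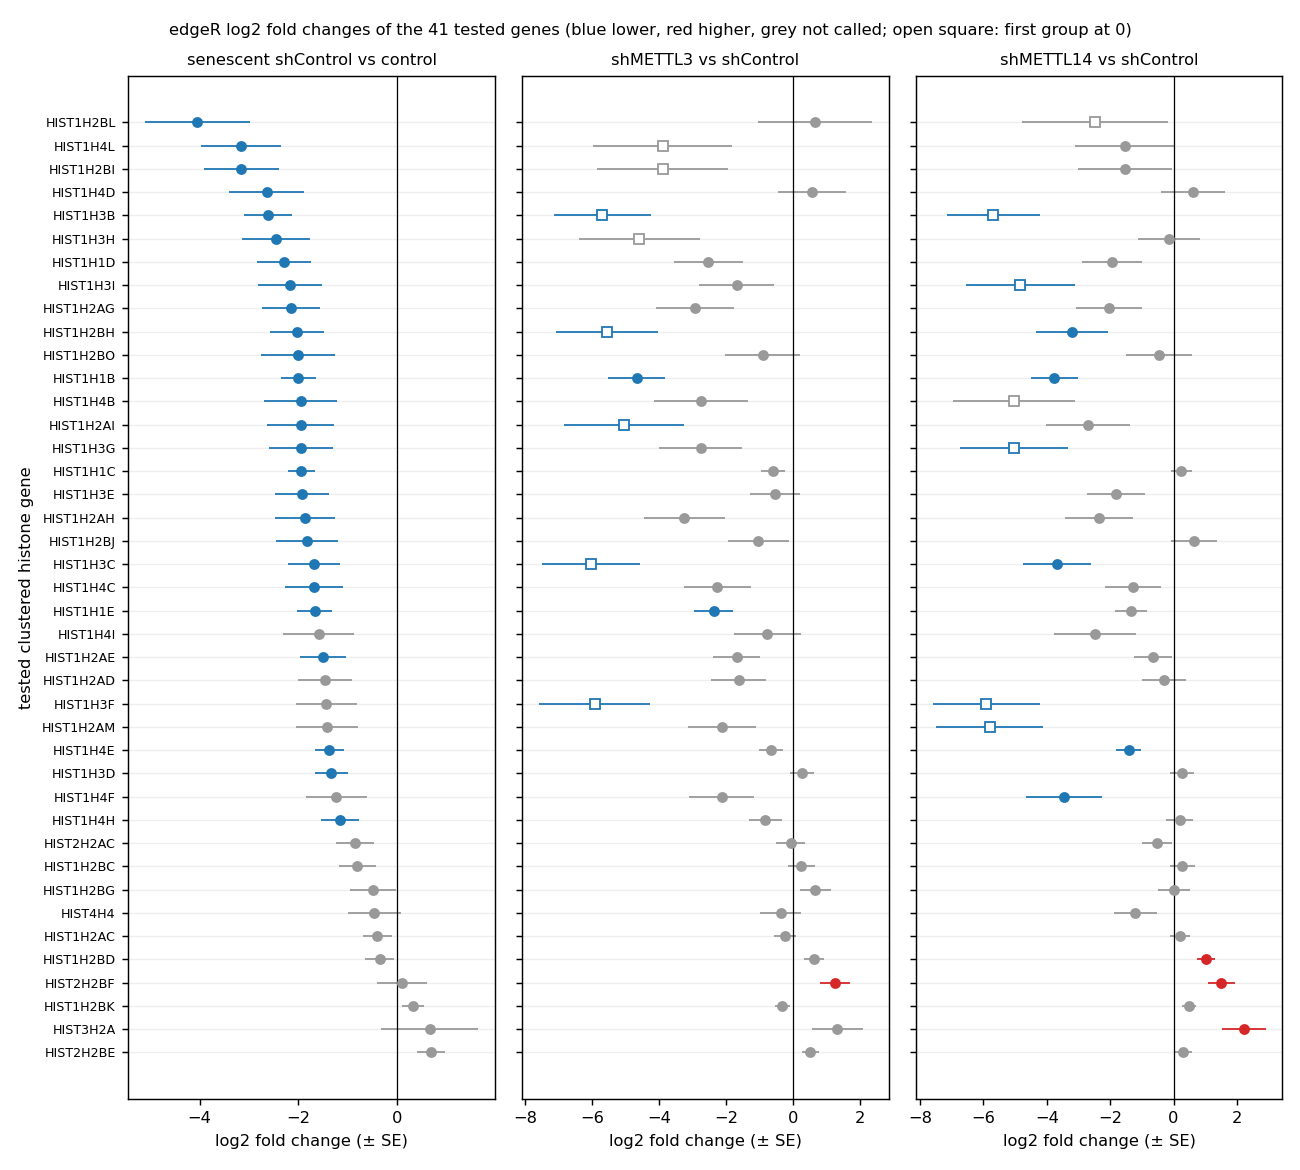
edgeR log2 fold change with its standard error (x axis, with its own range in each panel) for the 41 tested members (y axis, ordered by the change in senescence) in the 3 main comparisons; blue is lower, red higher and grey not called, and open squares mark genes at 0 in both libraries of the first group, whose fold is not estimable. In senescence 26 members are blue and none is red, and after METTL14 knockdown HIST1H2BD, HIST2H2BF and HIST3H2A are red.

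The second comparison set METTL3 knockdown against shControl within senescent cells. Of the 71 members 41 were tested, and 7 were lower and 1 was higher, beside 11.2% lower and 12.3% higher of all genes tested, and 33 did not pass the test. The lower members were HIST1H1B, HIST1H1E, HIST1H2AI, HIST1H2BH, HIST1H3B, HIST1H3C and HIST1H3F, of which 6 had passed the filter only with the control libraries. HIST1H1E was the 1 lower member among the 15 that passed without them. The median log2 fold change was -1.62 over the 41 tested members and -0.03 over all genes tested. The fitted values of the 8 tested members at 0 in shMETTL3 are not bounds, and with these genes at their bound, or at 0 where none can be given, the median was -0.77. It was -0.17 over the 14 members tested when only these groups were fitted, and 0.07 over the 8 members with at least 10 counts in every library, so it depended on members that entered through the control libraries.

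Of the members called lower, 5 had no count in shMETTL3, among them 3 H3 genes. HIST1H3C had 33 and 26 counts in control, 4 and 10 in shControl and 0 and 0 in shMETTL3, which against a floor of 3 counts per library is at least 2.68-fold lower than shControl (edgeR adjusted p = 0.00344). HIST1H3F had 26 and 20 counts in control, 1 and 12 in shControl and 0 in both shMETTL3 libraries, at least 2.45-fold lower. HIST1H3B went from 6 and 5 in shControl to 0 and 0, at least 2.14-fold lower than shControl and at least 13.2-fold lower than control. HIST1H2BH and HIST1H2AI were at 0 in shMETTL3 as well, from 5 and 5 and from 1 and 6 counts in shControl. HIST1H2AI shares 67.4% of its 50-base windows with another member, so its reads could be split between copies.

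Among the 4 tested H1 genes, HIST1H1B and HIST1H1E were lower. HIST1H1B had 10 and 17 counts in shControl and 1 and 0 in shMETTL3, a 31.4-fold decrease with an exact counting interval of 5.17 to 1285 (edgeR adjusted p = 0.000192). HIST1H1E had 13 and 19 counts in shControl and 3 and 4 in shMETTL3, with a log2 fold change of -2.37 ± 0.58 (adjusted p = 0.00390). HIST1H1C, with 17 and 30 and then 13 and 23 counts, did not pass the test (-0.60 ± 0.36, adjusted p = 0.250), and neither did HIST1H1D, with 2 and 9 and then 2 and 0 counts (-2.53 ± 1.03, adjusted p = 0.0761). HIST1H4E, with 17 and 36 and then 19 and 20 counts, did not pass either (-0.65 ± 0.36, adjusted p = 0.202).

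HIST2H2BF was the member called higher. It had 8 and 11 counts in shControl and 30 and 23 in shMETTL3, both above every shControl and control library (log2 fold change 1.26 ± 0.44, edgeR adjusted p = 0.0368). Its row shares 33.1% of its span with FCGR1A, which had at most 7 counts in a library. The call was lost in DESeq2, which called 4 members lower and 0 higher, and without shControl replicate 1 or 2, shMETTL3 replicate 1 or shMETTL14 replicate 1 or 2. It was also lost when only the groups compared were fitted and with library size taken without ribosomal RNA rows. DESeq2 gave no adjusted p for 21 members in this comparison. HIST2H2BE had 48 and 39 counts in shControl and 56 and 90 in shMETTL3 and did not pass (0.52 ± 0.26, adjusted p = 0.155). Without shControl replicate 2, 3 members were called lower.

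The third comparison set METTL14 knockdown against the same shControl libraries. Of the 71 members 10 were lower and 3 were higher, beside 12% lower and 9.15% higher of all genes tested, and 28 did not pass the test. The lower members were HIST1H1B, HIST1H2AM, HIST1H2BH, HIST1H3B, HIST1H3C, HIST1H3F, HIST1H3G, HIST1H3I, HIST1H4E and HIST1H4F, and the higher ones were HIST1H2BD, HIST2H2BF and HIST3H2A. The median log2 fold change was -1.33 over the 41 tested members and 0.00 over all genes tested, and -0.52 with the 7 tested members at 0 in shMETTL14 set to their bound in the same way. Its sign turned with the filter: it was 0.24 over the 14 members tested when only these groups were fitted, and 0.27 over the 8 members with at least 10 counts in every library. Of the 10 lower members, 9 had passed the filter only with the control libraries, and of the 15 members that passed without them 1 was lower and 3 were higher. The 15 passed through senescent libraries, HIST3H2A through shMETTL14 alone, so these numbers are not support for a direction.

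HIST1H3B and HIST1H3F were at 0 in both shMETTL14 libraries, at least 2.06-fold and 2.36-fold lower than shControl (edgeR adjusted p = 0.00630 and 0.0133). HIST1H2AM had 25 and 17 counts in control, 2 and 10 in shControl, 3 and 0 in shMETTL3 and 0 and 0 in shMETTL14, at least 2.19-fold lower than shControl. HIST1H3G and HIST1H3I were at 0 in shMETTL14 too, from 4 and 3 and from 2 and 4 counts in shControl. HIST1H1B had 1 and 1 counts in shMETTL14, a 15.1-fold decrease with a counting interval of 3.79 to 131. HIST1H4E fell from 17 and 36 counts in shControl to 13 and 9 in shMETTL14 (log2 fold change -1.42 ± 0.40, edgeR adjusted p = 0.0121). The 2 libraries of shControl were both above those of shMETTL14 for each of these genes.

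Among the higher members, HIST3H2A, a short H2A gene on chromosome 1, had 1 and 3 counts in control, 3 and 2 in shControl, 7 and 8 in shMETTL3 and 14 and 13 in shMETTL14. Its log2 fold change over shControl was 2.22 ± 0.69 (edgeR adjusted p = 0.0216). HIST3H2A passed the filter only through the shMETTL14 libraries. It had to lie high there to be tested, so this call is not support for its direction. HIST2H2BF had 37 and 24 counts in shMETTL14 (1.51 ± 0.43, edgeR adjusted p = 0.0118), and HIST1H2BD had 69 and 52 against 19 and 34 in shControl (1.03 ± 0.29, edgeR adjusted p = 0.0105). For all 3 genes both shMETTL14 libraries lay above both shControl libraries. The counts of calls again depended on single libraries. There were 6 lower members without control replicate 2, 2 without shControl replicate 2, 2 without shMETTL14 replicate 1 and 3 without shMETTL14 replicate 2. The higher members numbered 0 without shControl replicate 1 or shMETTL14 replicate 1 and 1 without shControl replicate 2, and DESeq2 called 3 lower and 0 higher, again with no adjusted p for 21 members.

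**Figure D4:**
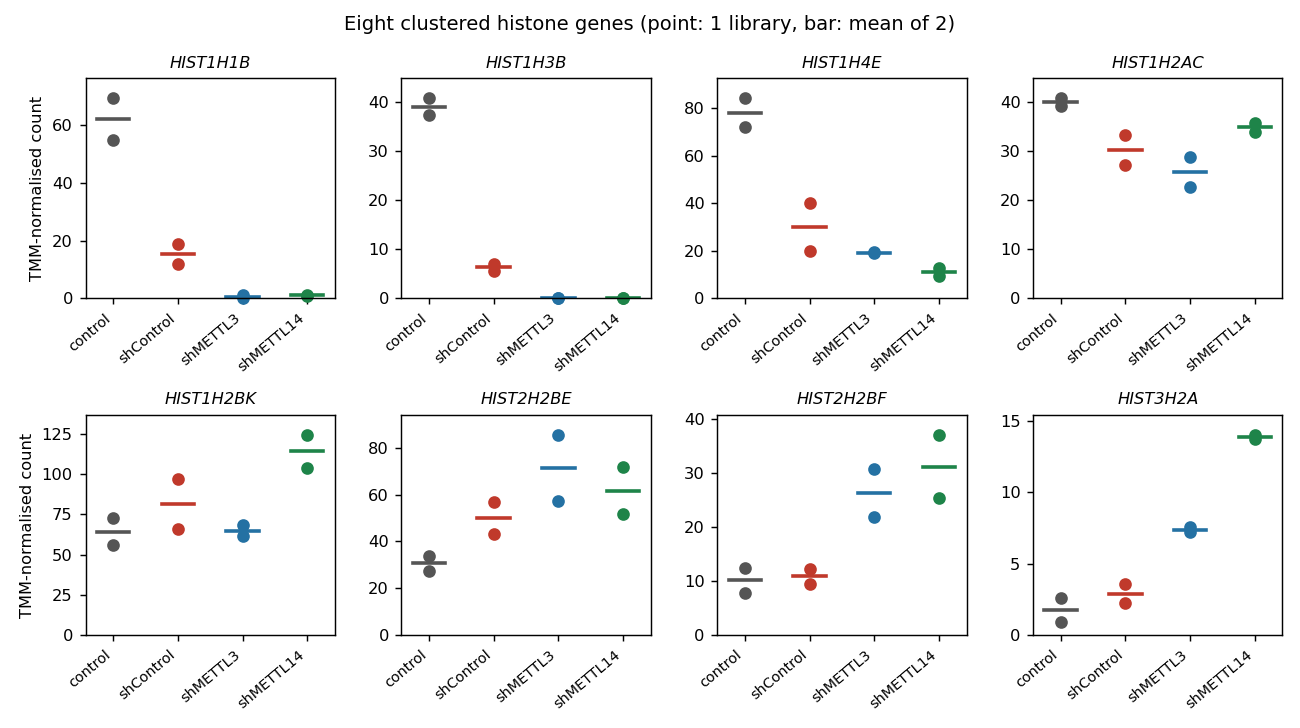
TMM-normalised counts (y axis, from 0) of 8 members in the 4 groups (x axis); points are libraries and bars are means of 2. HIST1H1B and HIST1H3B fall to or near 0 in the knockdown cells, HIST1H4E falls in part, and HIST2H2BE, HIST2H2BF and HIST3H2A have their highest means in knockdown cells.

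Some members had no count left in the knockdown cells. Of 48 members with at least 20 counts summed over the control libraries, 0 were at 0 in both shControl libraries, 9 (18.8%) in shMETTL3 and 9 (18.8%) in shMETTL14. In shMETTL3 these were HIST1H2AB, HIST1H2AI, HIST1H2BH, HIST1H2BI, HIST1H3B, HIST1H3C, HIST1H3F, HIST1H3H and HIST1H4L. In shMETTL14 they were HIST1H2AL, HIST1H2AM, HIST1H2BL, HIST1H2BM, HIST1H3B, HIST1H3F, HIST1H3G, HIST1H3I and HIST1H4B. Of 12028 other rows with at least 20 control counts, 0.283% were at 0 in shMETTL3 and 0.266% in shMETTL14, but many of these rows have far higher counts, and levels were not matched. The minimum of 20 was chosen after the counts had been seen.

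The knockdowns were also compared directly. Of the 71 members 1 was higher and 0 were lower in shMETTL14 than in shMETTL3, beside 16.5% higher and 18.7% lower of all genes tested. At an unadjusted p below 0.05, edgeR had 5 higher and 0 lower, and DESeq2 called 1 higher and 0 lower. HIST1H2BK had 60 and 72 counts in shMETTL3 and 104 and 118 in shMETTL14 (log2 fold change 0.81 ± 0.21, edgeR adjusted p = 0.00435). The call was lost without shMETTL14 replicate 2 and with library size alone as the scaling, while 2 members were called higher without shMETTL3 replicate 1 and 3 without shMETTL3 replicate 2. For HIST1H1B, HIST1H3B and the other genes near 0 in both knockdowns, a difference between them was not detectable at this depth.

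Against control cells, shMETTL3 had 31 members lower and 3 higher, beside 20.1% lower and 20.1% higher of all genes tested, and shMETTL14 had 32 lower and 5 higher, beside 20.5% lower and 19.7% higher (edgeR). Of the lower members, 26 in shMETTL3 and 25 in shMETTL14 had passed the filter only with the control libraries, so these counts are not support for a direction. Of the 15 members that passed without them, 5 were lower and 3 higher in shMETTL3, and 7 were lower and 5 higher in shMETTL14. The 15 had passed through senescent libraries, so their numbers are not support for a direction either. These comparisons share the control libraries with the first one. HIST2H2BE, HIST2H2BF and HIST3H2A were higher than control in shMETTL3, and these 3 with HIST1H2BD and HIST1H2BK in shMETTL14. HIST3H2A had passed the filter only through the shMETTL14 libraries. HIST2H2BE was 2.34-fold higher in shMETTL3 (edgeR log2 fold change 1.22 ± 0.27, adjusted p = 0.000626) and 2.02-fold higher in shMETTL14 (1.01 ± 0.28, adjusted p = 0.00447). Its 4 knockdown libraries, with 56, 90, 72 and 49 counts, were all above the 31 and 39 of control. Besides genes already named, HIST1H2AD and HIST1H4I were lower than control in each knockdown, and HIST2H2AC and HIST4H4 were lower in shMETTL14. HIST2H2AC had 28 and 36 counts in control, 15 and 12 in shControl, 16 and 14 in shMETTL3 and 11 and 10 in shMETTL14. HIST4H4 had 17 and 17, 5 and 14, 9 and 8, and 2 and 7 in the same order. HIST1H2AC, HIST1H2BC and HIST1H2BG passed the test in neither knockdown. Higher members numbered 1 in shMETTL3 without control replicate 2 or shMETTL3 replicate 1. In shMETTL14 they numbered 2 without control replicate 1 or shMETTL14 replicate 1 and 3 without control replicate 2.

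Genes that work with the clustered histone genes were listed by role. Of 24 genes of S phase entry and DNA synthesis, 19 were tested and 8 were lower and 1 was higher in senescence, with a median log2 fold change of -0.92 against -0.03 over all genes tested, of which 13.3% were lower. RRM2, a subunit of ribonucleotide reductase, fell by 2.21 and TK1, thymidine kinase, by 2.00 on the log2 scale, while POLA1, the catalytic subunit of DNA polymerase alpha, fell by 0.77. The list went through the same filter as the members. RRM2, with 9 and 14 counts in shControl, and TK1, with 3 and 6, could be tested only with the control libraries. The figures of this list therefore describe it and are not support for its direction. PCNA, the sliding clamp, did not pass the test (-0.58 ± 0.29, edgeR adjusted p = 0.142). After METTL3 knockdown 4 of the 19 were lower than in shControl and 1 was higher, and after METTL14 knockdown 2 were lower and 0 higher, beside 11.2% and 12% lower of all genes tested. RRM2 was lower than in shControl in both, by -2.10 in shMETTL3 and -2.31 in shMETTL14 on the log2 scale.

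The machinery of histone transcription and 3′ end formation was represented by 14 genes of the histone locus body and histone mRNA processing. All 14 were tested, and 1 was lower and 0 higher in senescence, 1 lower after METTL3 knockdown and 1 lower after METTL14 knockdown. Over all genes tested, 13.3%, 11.2% and 12% were lower in these comparisons. The genes called were CASP8AP2, a histone locus body protein (log2 fold change -0.78), ERI1, an exonuclease that trims histone mRNA ends (-1.11), and SLBP, the stem-loop binding protein (-0.82). The medians were 0.13, -0.17 and 0.17 in the 3 comparisons. NPAT had 66 and 59 counts in control, 59 and 52 in shControl, 83 and 83 in shMETTL3 and 56 and 58 in shMETTL14. The cleavage factors SYMPK, CPSF2 and CPSF1, the list's members with the most counts, passed the test in none of the 3.

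Replication-independent histones, which are made throughout the cell cycle, showed both directions. Of 12 genes 10 were tested, with 2 lower in senescence, 2 lower and 1 higher in shMETTL3, and 1 lower and 2 higher in shMETTL14. H2AFV fell in senescence by 0.90 on the log2 scale, and H3F3B, which codes for the H3 variant deposited outside replication, passed the test in none (-0.11 ± 0.15 in senescence, edgeR adjusted p = 0.640). H2AFY, the macroH2A gene, was higher in shMETTL3 than in shControl (0.81 ± 0.15, edgeR adjusted p = 0.000174). H1F0, the linker histone of non-dividing cells, had 41 and 36 counts in control, 26 and 26 in shControl, 31 and 54 in shMETTL3 and 83 and 74 in shMETTL14. It rose in shMETTL14 over shControl by 1.43 ± 0.27 (edgeR adjusted p = 0.000353). Of 16 histone chaperones 15 were tested, with 1 lower in senescence, 1 lower and 2 higher in shMETTL3, and 5 lower and 0 higher in shMETTL14. The shares of all genes tested were 13.3% lower in senescence, 11.2% lower and 12.3% higher in shMETTL3, and 12% lower and 9.15% higher in shMETTL14, and they apply to each of these lists. The chaperones with the most counts were ATRX, NAP1L1 and NAP1L4. ATRX was 0.61 higher in shMETTL3 and 0.70 lower in shMETTL14 on the log2 scale, NAP1L1 fell in shMETTL14 by 0.52, and NAP1L4 passed in none of the 3 comparisons.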

How the data were processed

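Nascent RNA from 4 groups of IMR90 ER:RAS cells, 2 libraries each, was analysed from 1 table of raw counts per gene. According to the deposited header, the authors counted reads over whole gene bodies with HOMER on hg19, without normalization. The submitters' processing notes also name STAR and deepTools 3.3. How reads that map to several places were treated is not given in the sources used here, and genes listed at 2 positions were mostly at 0. Counts behaved as if strand was not used: in 52 of 52 nested pairs on opposite strands the outer gene had at least the counts of the inner one, so overlapping genes cannot be told apart. No scaling to the Drosophila spike-in was done.

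Members were rows with a protein-coding biotype and a symbol starting with HIST1H to HIST4H, which left out 3 pseudogene rows. The members and gene lists were chosen with earlier results of these data known. All 27945 genes entered the fit, of which 12844 passed edgeR filterByExpr (minimum count 10) and were tested with the edgeR 4.0.16 quasi-likelihood test (TMM scaling, all 4 groups, Benjamini-Hochberg adjusted p below 0.05, R 4.3.3). Library totals were 14897360 to 20306299 counts, mostly in 21 ribosomal RNA rows. CPM sums and RPKM were computed here from the deposited counts, relative to the total outside those rows. Intervals are exact 95% binomial intervals and cover counting error only, and the floor for a group at 0 was 3 counts per library. DESeq2 1.42.0, other scalings and filters, and leaving out each library were alternatives. The text names METTL3 and METTL14, every called member, the counts per library of up to 3 largest rises and falls among called members in each main comparison, the member with the most counts in each histone type and the 3 genes with the most counts in each list. The values of 1 listed gene are not reported here. Other genes, the grouping by row end and the motifs were chosen after values were seen. In simulated counts for senescent shControl against control, with 12334 genes tested, edgeR recovered 150 of 200 genes changed 2-fold and called 9 unchanged genes, and DESeq2 recovered 102 and called 0.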

Additional observations from a re-analysis of the deposited data

Results flagged for a closer look

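HIST1H2BK, an H2B gene whose row runs past its stem-loop and holds HIST1H4I, differed between the knockdowns in their direct comparison. It was higher in shMETTL14 than in shMETTL3 by 0.81 on the log2 scale (SE 0.21, edgeR adjusted p = 0.00435), with 104 and 118 counts against 60 and 72. The call was lost without shMETTL14 replicate 2 and with library size alone as the scaling. HIST1H4I had at most 3 counts in these 4 libraries.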

How the results depend on the processing

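In the 3 main comparisons, all 47 member log2 fold changes called kept their direction in all 683 alternative values, and 177 of these did not pass the test. HIST1H1B in the 3 main comparisons, HIST1H1C, HIST1H1E, HIST1H3B and HIST1H3D in senescence, and HIST1H3B in shMETTL3 against shControl passed under every alternative that gave a value. The numbers of members called moved more. DESeq2 called 7 lower in senescence, 4 lower and 0 higher in shMETTL3, 3 lower and 0 higher in shMETTL14, and 1 higher in shMETTL3 against control. At least 10 counts in every library left 8 members to test, with 3 lower in senescence, 0 lower and 0 higher in shMETTL3, 0 lower and 1 higher in shMETTL14, 2 higher between the knockdowns, and against control 3 lower and 1 higher in shMETTL3 and 3 lower and 2 higher in shMETTL14. Fitting only the groups compared gave 1 higher in senescence, 1 lower and 0 higher in shMETTL3, and 2 lower in shMETTL14, with 14 members tested in the knockdown comparisons. Library size alone gave 4 higher in shMETTL3 and 0 higher between the knockdowns, and it moved the median of all genes to -0.53 in senescence, 0.58 in shMETTL3 and 0.35 in shMETTL14 on the log2 scale, where the members' medians were -2.16, -1.02 and -0.99. Library size without ribosomal RNA rows gave 0 higher in shMETTL3 and 4 higher between the knockdowns, and upper quartile scaling gave 2 there. Without the overlapping members there were 0 higher in shMETTL3, 0 between the knockdowns and 3 in shMETTL14 against control. The cause of these moves was not tested, apart from the smaller number of members tested.

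The replicate numbers did not pair the samples (correlations of deviations from -0.04 to 0.10). With a replicate block, 22 members were lower in senescence, 6 lower and 1 higher in shMETTL3, 8 lower and 3 higher in shMETTL14, and 2 higher between the knockdowns.

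Leaving out 1 library at a time gave 5 to 33 lower and 0 to 1 higher in senescence, 3 to 10 lower and 0 to 1 higher in shMETTL3, 2 to 13 lower and 0 to 3 higher in shMETTL14, 0 to 3 higher between the knockdowns, and against control 30 to 40 lower and 1 to 2 higher in shMETTL3 and 29 to 43 lower and 2 to 5 higher in shMETTL14. The lone library of the reduced group was assumed to vary like the others. With TMM scaling the summed counts in shMETTL3 were 33.1% of control, and without the 5 rows past the stem-loop, an alternative added after seeing the data, the sums were 30.9%, 16.3% and 21.3% of control in shControl, shMETTL3 and shMETTL14. Many members had under 10 counts per senescent library, which limits the folds that can be given.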

Other observations

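The clusters also held 3 pseudogene rows, which were not members and had few counts. HIST2H2BA had 6 and 9 counts in control, 6 and 7 in shControl, 4 and 6 in shMETTL3 and 7 and 6 in shMETTL14. HIST2H2BC had 1 and 2 counts in shMETTL3 and 0 in the other libraries, and HIST1H2APS1 was at 0 in all 8.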
